A study of Mus musculus with 48 samples.

Results

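The immunoproteasome and its PA28 activator were followed through 5 genes, Psmb8, Psmb9, Psmb10, Psme1 and Psme2, among the 55450 gene identifiers counted in mouse B16-D5 melanoma tumors. The 5 genes were chosen by name, and they were singled out because Psme2 and Psmb9 lead the genes that are higher in untreated tumors labelled iNOS KO than in untreated WT tumors at day 7. That contrast is therefore given here as a description with no test. All 5 genes passed the filter on low counts in both experiments.

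The proteasome is a barrel-shaped protease that cuts cellular proteins into peptides. In its inner rings the constitutive catalytic subunits β5, β1 and β2, encoded by Psmb5, Psmb6 and Psmb7, can be replaced by the interferon-inducible subunits β5i (Psmb8, also called LMP7), β1i (Psmb9, LMP2) and β2i (Psmb10, MECL-1), which favors peptides that fit MHC class I molecules. PA28α (Psme1) and PA28β (Psme2) form a ring that caps the barrel and opens it. In melanoma, as in other tumors, this set is known as part of the machinery through which interferon-γ from T and NK cells raises antigen presentation.

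Tumors grew subcutaneously in the flank of C57BL/6J mice, WT or carrying a deletion of inducible nitric oxide synthase (iNOS, gene Nos2), that were 4 weeks old on arrival and were housed for 2 weeks. B16-D5 is a mouse melanoma cell line, so in every group the tumor cells carried their own Nos2 and only the host could lack it. From 8 days after injection, mice received 250 µg of anti-PD-1 antibody (labelled aPD1), which blocks an inhibitory receptor of T cells, or of control IgG, each in 200 µL of PBS on days 0 and 3, or were left untreated (labelled Ctrl). Bulk RNA of 48 tumors from individual mice was sequenced, 3 tumors in each of 16 groups. The first experiment held 30 tumors of WT mice (untreated at 0 h, then untreated, IgG and anti-PD-1 tumors at 6 h, day 1 and day 3), and the second held 18 tumors at day 7 (untreated, IgG and anti-PD-1, each in mice labelled WT and iNOS KO). The 6 h groups carry D0 in their titles, and the times of 6 h and day 7 come from the study's own description. In bulk tissue, fewer cells of a type and less RNA per cell cannot be told apart.

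Nos2 did not separate the genotype labels. At day 7 it lay between 1.15 and 5.92 CPM (counts scaled to a common library size), with a median of 4.21, in the 9 tumors whose titles give KO, and between 1.40 and 7.28, with a median of 3.28, in the 9 tumors whose titles give WT. In the KO-labelled tumors Nos2 stood at 4.21, 2.41 and 4.98 CPM untreated, at 2.47, 5.92 and 5.83 with IgG and at 5.40, 1.15 and 1.296 with anti-PD-1. In the WT-labelled tumors it stood at 1.40, 3.28 and 3.56, at 1.45, 3.43 and 2.81 and at 4.09, 7.28 and 2.87 in the same order. The 2 ranges overlap, the genotype field of all 48 labels reads WT, and the treatment field matches the title in 14 of 48 labels, so genotype and treatment are used here as the titles give them. In the first experiment, where every mouse was WT, Nos2 ranged from 0.695 to 40.97 CPM with a median of 1.95. The sum of 8 melanoma markers (such as Mlana, Pmel and Dct) lay between 9396 and 20659 CPM over all 48 tumors and none of the 8 was at 0, so the tumors expressed the markers of their labelled cell type.

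Library totals lay between 25574203 and 47687872 counts in the first experiment and between 11625862 and 40959309 in the second. Each of the 5 genes had at least 142 counts in every library. At day 7, 3 libraries stood apart by counts over 1502 olfactory, vomeronasal and taste receptor genes, which tumors are not known to express: anti-PD-1 WT replicate 3 (3710 CPM in sum, total count 11625862), anti-PD-1 WT replicate 4 (1304 CPM, 18797177 counts) and untreated KO-labelled replicate 1 (916 CPM, 23267834 counts). No other library exceeded 319 CPM. Scaled by exonic length, such counts would make up 8.84%, 3.11% and 2.18% of these libraries. For some of the 5 genes, log2 fold changes that rest on these libraries are also given without them or with the background subtracted. No values with these libraries set aside are given for the lists, the marker sums and the correlations.

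The genes sit in 3 places of the genome (GRCm38 coordinates of GENCODE vM21). Psmb9 (chr17:34181987-34187764, minus strand) and Psmb8 (chr17:34197721-34201454, plus strand) flank Tap1 (chr17:34187553-34197225, plus strand), a subunit of the peptide transporter, within the MHC, and the gene models of Psmb9 and Tap1 overlap by 212 bp. Psme1 (chr14:55578123-55581529, plus strand) and Psme2 (chr14:55587441-55591113, minus strand) are neighbors with 5911 bp between them. Psmb10 (chr8:105935735-105938444, minus strand) stands alone. Psme2 has a near-identical copy, Psme2b (chr11:48945354-48946190), which received counts equal to a median of 15.3% of those of Psme2 in the first experiment and 11.1% in the second, with maxima of 40.5% and 57.5%, so the counts of Psme2 are uncertain to that extent. The overlapping genes Gm20496 (Psmb8), Gm16156 (Psmb10) and Emc9 (Psme1) received at most 5.75%, 9.16% and 6.36% of the counts of the gene they overlap in any library. Tap1, which overlaps Psmb9, received far more, a median of 412% of the level of Psmb9 in the first experiment and 387% in the second, with maxima of 752% and 528%. How much of the count of Psmb9 comes from the shared 212 bp was not tested.

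Promoters from RefSeq (GRCm38.p6, 250 bases before to 50 after the start) were searched on both strands for an interferon-stimulated response element, which reads GAAA, any 2 bases and GAAA again, and a gamma-activated site, spelled TTCNNNGAA. The 2 windows that held a match are shown because elements of these kinds are known from the promoters of interferon-responsive genes. Capitals mark the motif, and each sequence reads 5′ to 3′ on the plus strand, which is the strand of both genes.
Psmb8, gamma-activated site, chr17:34198088-34198117: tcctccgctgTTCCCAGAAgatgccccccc
Psme1, response element on the opposite strand, chr14:55578493-55578522: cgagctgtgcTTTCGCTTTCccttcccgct
The match in Psmb8 covered bases −97 to −89 from the start, and that in Psme1 bases 9 to 18. The promoters of Psmb9, Psmb10, Psme2 (2 starts) and Tap1 held no match to these letters in this window. Of 32851 promoters of the same length, 3.44% held the response element and 8.3% the gamma-activated site.

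Psme1 was the most abundant of the 5 genes. Per kilobase of exon, its median level was 71.8 CPM over the 30 tumors of the first experiment, against 15.04 for Psmb10, 14.2 for Psme2, 12.7 for Psmb8 and 4.41 for Psmb9. The constitutive subunits stood at 23.96 (Psmb5), 50.3 (Psmb6) and 27.8 (Psmb7) on the same scale. Of the other proteasome activators, PA28γ (Psme3) stood at 110.9 and PA200 (Psme4) at 13.9. At day 7 the medians over 18 tumors were 59.8 for Psme1, 11.5 for Psme2, 10.3 for Psmb10, 8.59 for Psmb8 and 2.80 for Psmb9.

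**Figure D1:**
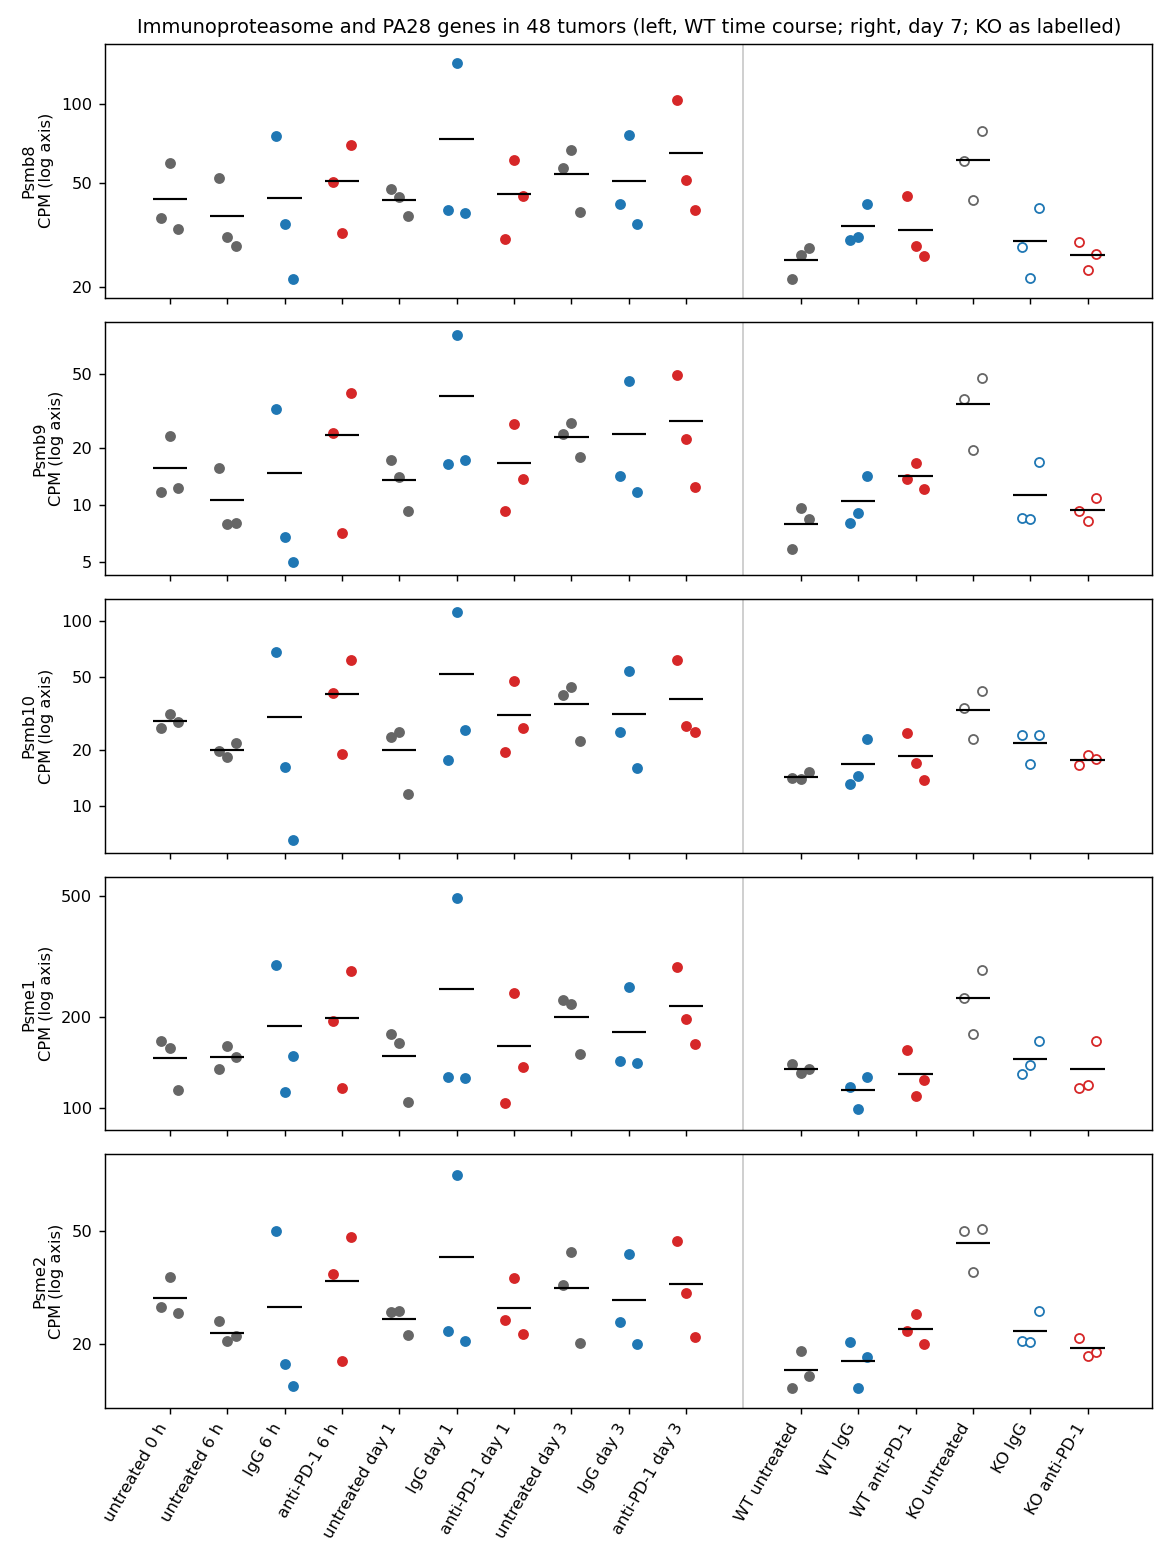
Level of each of the 5 genes (CPM, log axis) in every tumor by group, 1 point per tumor and a line at the group mean, for the first experiment (left) and for day 7 (right, open points for KO-labelled tumors), each experiment scaled on its own. Most groups overlap their neighbors, IgG replicate 4 of day 1 is the highest tumor of the first experiment for every gene, and the untreated KO-labelled group has the highest mean at day 7 for every gene.

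The levels varied widely from tumor to tumor in the first experiment. From the lowest to the highest of the 30 tumors, Psmb10 spanned 17.1-fold, Psmb9 16.1-fold, Psmb8 6.74-fold, Psme2 5.57-fold and Psme1 4.74-fold. Psmb5, Psmb6 and Psmb7 spanned 3.16-fold, 3.45-fold and 2.22-fold. Within groups, the standard deviation of the log2 level was 0.93 for Psmb9, 0.88 for Psmb10, 0.63 for Psmb8, 0.61 for Psme2 and 0.58 for Psme1, against 0.31 to 0.40 for the 3 constitutive subunits. With the 10 groups put in order of their mean, 8 of 9 neighboring pairs overlapped for Psmb10 and 9 of 9 for each of the other 4 genes. At day 7 the spread within groups was smaller, 0.43 for Psmb9, 0.33 for Psmb8, 0.32 for Psmb10, 0.24 for Psme1 and 0.21 for Psme2, beside 0.20 to 0.22 for Psmb5 to Psmb7. There, 4 of 5 neighboring pairs of the 6 groups overlapped, and 5 of 5 for Psmb10.

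The same few tumors were high for all 5 genes. IgG day 1 replicate 4 was highest in the first experiment for each, with 143.8 CPM of Psmb8, 80.2 of Psmb9, 112.1 of Psmb10, 491.7 of Psme1 and 79.2 of Psme2. The other 2 IgG tumors of day 1 held 16.5 and 17.4 CPM of Psmb9. Anti-PD-1 day 3 replicate 3, IgG 6 h replicate 1, anti-PD-1 6 h replicate 5 and IgG day 3 replicate 3 followed, and all 5 genes placed these 5 tumors among their 6 highest. These tumors thus came from both antibodies and all 3 times. The lowest tumor on the mean of the 5 genes was IgG 6 h replicate 6, with 21.3 CPM of Psmb8, 4.98 of Psmb9 and 6.56 of Psmb10.

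Transcripts of interferon-γ and its targets were counted in the same tumors. IgG day 1 replicate 4 held 287 counts of Ifng, interferon-γ itself, 374 CPM of Irf1, an interferon-induced transcription factor, and 40.97 CPM of Nos2. Anti-PD-1 6 h replicate 5 held 130 counts of Ifng and anti-PD-1 day 3 replicate 3 held 114, while 10 libraries of the first experiment held 0. The sum of 12 T and NK cell markers was 154 CPM in IgG day 1 replicate 4, the highest of the first experiment, and the sum of 10 leukocyte markers was 1370 CPM. Whether the number of T and NK cells had a part in the levels of the 5 genes was not tested.

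**Figure D2:**
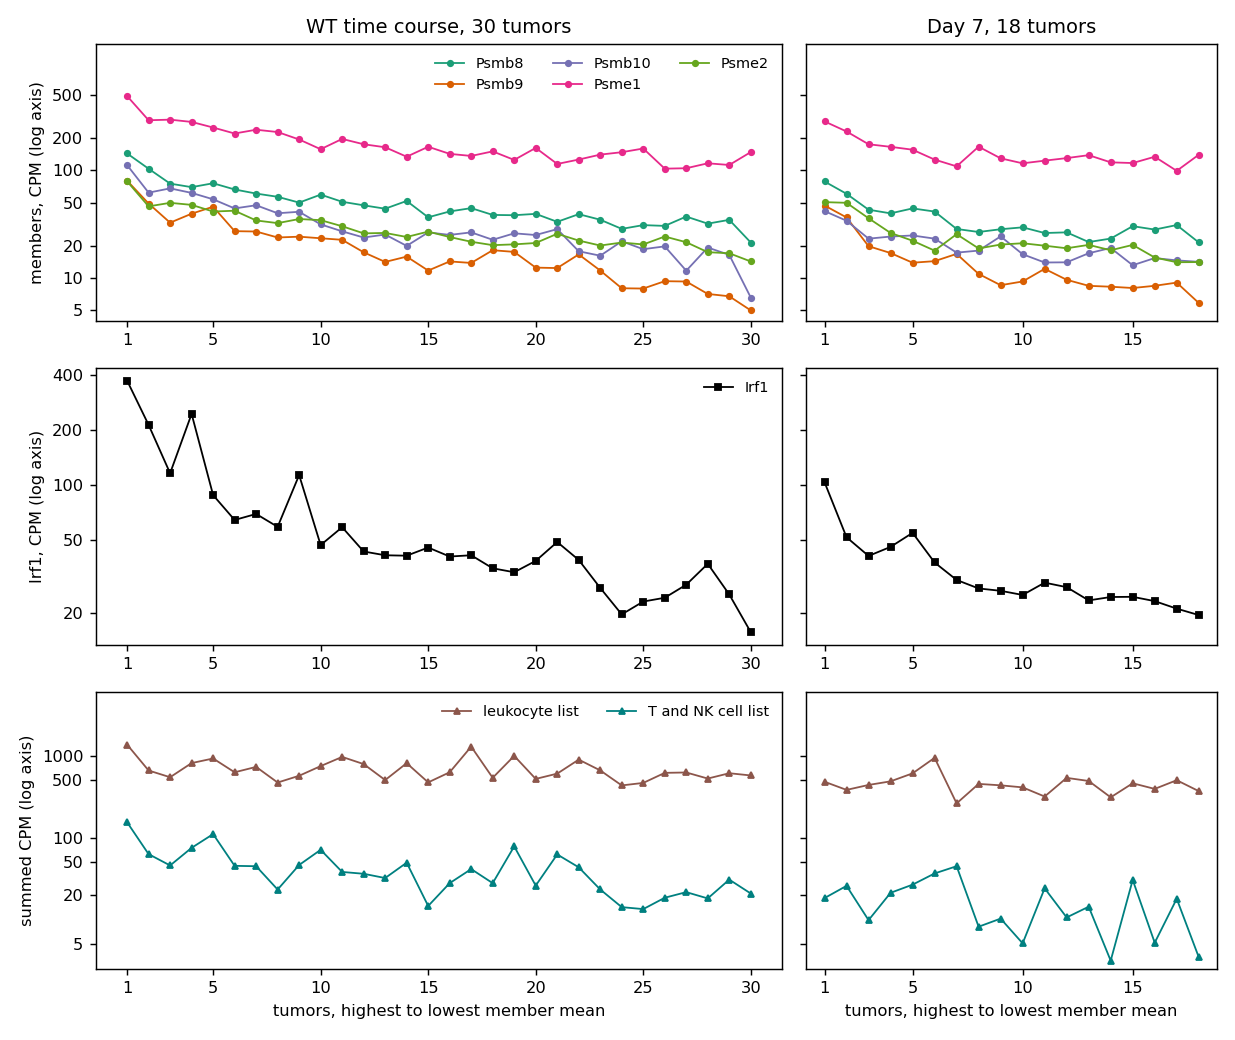
The 30 tumors of the first experiment and the 18 of day 7 from the highest to the lowest mean log2 level of the 5 genes, with the levels of the genes (top), of Irf1 (middle) and the summed leukocyte and T and NK cell markers (bottom) in each tumor (CPM, log axes). IgG day 1 replicate 4 is at the top of the first experiment with 154 CPM of the T and NK cell markers, and the 3 untreated KO-labelled tumors are at the top of day 7 with 9.82 to 25.8 CPM.

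The 5 genes moved together across tumors. On log2 values, Pearson's r between any 2 of them lay between 0.85 and 0.95 over 30 tumors and between 0.77 and 0.92 over the 18 tumors of day 7. After the group means were removed, r lay between 0.87 and 0.96 and between 0.36 and 0.84. The points share library, depth and scaling, tumors of a group share a treatment, and the day 7 values include the 3 untreated KO-labelled tumors that stood behind the choice of the genes, so these values are a description.

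With Irf1, r lay between 0.86 and 0.92 for the 5 genes over 30 tumors and between 0.82 and 0.93 at day 7. Without the 2 tumors farthest from the median of Irf1, r was 0.78 to 0.90 and 0.69 to 0.93. After the group means were removed, r with Irf1 was 0.91 to 0.96 and 0.58 to 0.92. For Ifng r with all tumors was 0.82 to 0.86 over 30 tumors and 0.16 to 0.55 at day 7. Without the 2 tumors farthest from the median of Ifng it was 0.69 to 0.78 and 0.37 to 0.69. Ifng was near the floor at day 7, with 0 counts in 8 of 18 libraries and at most 0.67 CPM, so its r there is uncertain. For Nos2 r was 0.56 to 0.67 over 30 tumors, but 0.26 to 0.39 without the 2 tumors farthest from the median of Nos2, and 0.15 to 0.45 at day 7. A list of 16 type I interferon-stimulated genes gave 0.65 to 0.76 over 30 tumors and 0.42 to 0.77 at day 7. Without the 2 tumors farthest from the median of that list, its r was 0.48 to 0.65 and 0.18 to 0.65. The T and NK cell markers gave 0.61 to 0.80 and 0.07 to 0.50, the macrophage markers −0.10 to 0.24 and −0.17 to 0.21, and the constitutive proteasome core 0.31 to 0.60 and 0.48 to 0.80. Without the 2 tumors farthest from the median of the core, its r at day 7 was −0.05 to 0.62, and after the group means were removed it was −0.34 to 0.27, so for some of the 5 genes the relation to the core at day 7 rests on these tumors and on the groups. After the group means were removed, r at day 7 was 0.34 to 0.83 for the T and NK cell markers and 0.26 to 0.64 for the macrophage markers.

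The genes most like the mean of the 5, by the lower of the 2 values of r and among 14795 genes compared, were Tgtp2 (r = 0.94 over 30 tumors and 0.96 over 18), H2-T22 (0.94 and 0.94), Irf1 (0.94 and 0.94), Ifi47 (0.92 and 0.96), Igtp (0.94 and 0.92), Batf2 (0.93 and 0.91), Iigp1 (0.91 and 0.92), Cd274 (0.91 and 0.90), Gbp6 (0.91 and 0.90) and Tgtp1 (0.96 and 0.89). Tgtp1, Tgtp2, Ifi47, Igtp and Iigp1 encode immunity-related GTPases, Gbp6 a guanylate-binding protein, H2-T22 a nonclassical MHC class I molecule, Batf2 a leucine zipper transcription factor and Cd274 the PD-1 ligand PD-L1. The values over 18 tumors include the untreated tumors whose contrast singled out the 5 genes, and group means were not removed. The ranking is therefore a description.

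To ask whether anti-PD-1 changed the immunoproteasome genes early, anti-PD-1 tumors were compared with IgG tumors at 6 h. Psmb9 stood at 24.2, 7.09 and 39.6 CPM with anti-PD-1 and at 32.6, 6.75 and 4.98 CPM with IgG. Psmb10 stood at 41.2, 19.2 and 61.8 CPM against 68.0, 16.4 and 6.56 CPM, and Psme2 at 35.3, 17.3 and 47.8 CPM against 49.9, 16.9 and 14.2 CPM. In each group 1 or 2 tumors were high and the rest low, and the groups overlapped for all 5 genes. The log2 fold change of anti-PD-1 over IgG was 0.67 for Psmb9 (SE 0.70), 0.42 for Psmb10 (SE 0.65), 0.31 for Psme2 (SE 0.47), 0.21 for Psmb8 (SE 0.48) and 0.09 for Psme1 (SE 0.44). The median of the 5 was 0.31, beside −0.07 over all genes tested.

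No gene among the 26848 tested was called at 6 h (edgeR's quasi-likelihood test, adjusted p under 0.05, 0.0% of genes), and the adjusted p was 1 for all 5 genes. Without adjustment, 1175 genes had p under 0.05, none of the 5 among them, and DESeq2 called 1 gene, also not one of the 5. Over the 5 genes, the lowest bound of a 95% interval was 0.530-fold (Psmb10) and the highest 4.36-fold (Psmb9), and the interval of Psme1 ran from 0.570-fold to 1.99-fold. Single tumors moved these values. Without IgG replicate 1 the log2 fold change of Psmb9 was 2.08 and that of Psmb8 0.92, and without IgG replicate 6 they were 0.27 and −0.10.

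Around the 5 genes, 8 of 10 interferon-γ signaling genes were higher with anti-PD-1 than with IgG at 6 h, with a median log2 fold change of 0.48. None passed the test, and Ifng gave 2.84, the feedback inhibitor Socs1 1.54, Irf1 1.33 and Irf8 0.98. In the class I peptide pathway, 9 of 11 genes were higher with a median of 0.26, with values of 0.66 for Tap1, 0.57 for Tapbpl, 0.50 for Tap2 and 0.46 for Tapbp, which load peptides onto class I molecules. The T and NK cell markers were higher in 10 of 12 cases, with a median of 0.59 and sums of 18.1 to 75.1 CPM against 20.8 to 45.7 CPM. Type I interferon-stimulated genes were higher in 15 of 16 cases, with a median of 0.26. The constitutive core was higher in 13 of 14, with a median of 0.14. No gene of these lists was called.

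Compared with untreated tumors of the same time, the 5 genes were again higher in the 6 h tumors with anti-PD-1. Untreated tumors held 15.8, 7.96 and 8.01 CPM of Psmb9, which overlap the anti-PD-1 tumors, and the log2 fold change was 1.16 (SE 0.71). For Psmb10, the untreated tumors held 19.9, 18.5 and 21.9 CPM, and the log2 fold change was 1.02 (SE 0.66). The median over the 5 genes was 0.61 beside −0.02 over all genes, the adjusted p was 1 for each, and 0.0% of genes were called (886 at unadjusted p under 0.05, and by DESeq2 7 genes higher and 0 lower, none of the 5). IgG itself gave a median of 0.33 over untreated tumors, with 0.60 for Psmb10 (SE 0.65) and 0.48 for Psmb9 (SE 0.71). Again 0.0% of genes were called (1456 at unadjusted p under 0.05, and by DESeq2 7 higher and 2 lower, none of the 5), and the adjusted p of the 5 lay between 0.889 and 0.950. Without IgG replicate 1, the log2 fold changes of IgG over untreated tumors turned to −0.92 for Psmb9 and −0.85 for Psmb10. Type I interferon-stimulated genes were higher with anti-PD-1 than in untreated tumors in 16 of 16 cases (median log2 fold change 0.82). Markers of some cells were also higher with anti-PD-1 than in untreated tumors, in 12 of 12 cases for T and NK cells (median log2 fold change 1.02), 9 of 9 for macrophages (0.17), 6 of 6 for keratinocytes (3.03) and 5 of 5 for adipocytes (1.25). Markers of other cells were not, with 2 of 7 higher for dendritic cells (−0.43), 3 of 8 for melanoma cells (−0.04) and 3 of 6 for B cells (0.05). Their part in the values of the 5 genes was not tested.

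At day 1 all 5 genes were lower on average with anti-PD-1 than with IgG, and 1 tumor carried that difference. Psmb9 stood at 9.32, 27.01 and 13.8 CPM with anti-PD-1 and at 16.5, 80.2 and 17.4 CPM with IgG. Psme1 stood at 103.8, 239 and 136 CPM against 126, 491.7 and 125 CPM. The high IgG tumor is replicate 4 described above, and the other 2 IgG tumors lie within the range of the anti-PD-1 tumors for both genes. Log2 fold changes were −1.19 for Psmb9 (SE 0.71), −0.73 for Psmb10 (SE 0.65), −0.70 for Psmb8 (SE 0.48), −0.63 for Psme1 (SE 0.44) and −0.60 for Psme2 (SE 0.47). Without IgG replicate 4 they were −0.08, 0.47, 0.19, 0.30 and 0.28 in the same order.

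The adjusted p was 1 for each of the 5 genes at day 1, and 0.0% of genes were called (976 at unadjusted p under 0.05, and by DESeq2 0 higher and 2 lower, none of the 5). The median over the 5 was −0.70 beside −0.01 over all genes tested. Of the 10 interferon-γ signaling genes 1 was higher (median −0.92), of the 11 class I pathway genes 2 (median −0.65), and of the 12 T and NK cell markers 0 (median −1.40), with Ifng at −3.20, Irf1 at −1.72 and Tapbpl at −1.38. Of the 16 type I interferon-stimulated genes 0 were higher (median −0.45). The constitutive core was at a median of 0.09, with 10 of 14 genes higher. The 12 T and NK cell markers summed to 18.4 to 44.8 CPM with anti-PD-1 and to 43.4 to 154 CPM with IgG, with 0 markers undetected in each IgG tumor. Keratinocyte markers were higher in 0 of 6 cases (median −4.13), skeletal muscle markers in 0 of 6 (−2.56) and adipocyte markers in 0 of 5 (−1.40). Leukocyte markers were higher in 1 of 10 cases (−0.33) and melanoma markers in 6 of 8 (0.11). The part of these cells in the values of the 5 genes was not tested.

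At day 3 the 5 genes were slightly higher with anti-PD-1, by log2 fold changes of 0.35 for Psmb8 (SE 0.48), 0.29 for Psme1 (SE 0.44), 0.27 for Psmb10 (SE 0.65), 0.23 for Psmb9 (SE 0.70) and 0.19 for Psme2 (SE 0.47). Psmb8 stood at 103.6, 51.1 and 39.4 CPM with anti-PD-1 and at 41.5, 75.9 and 34.8 CPM with IgG, with 1 high tumor on each side and full overlap. The adjusted p was 1 for each, and 0.0% of genes were called (575 at unadjusted p under 0.05, and by DESeq2 9 higher and 12 lower, none of the 5). Without anti-PD-1 replicate 3 the values of Psmb8 and Psmb9 turned to −0.20 and −0.50. The class I pathway was higher in 11 of 11 genes (median 0.28), the constitutive core in 14 of 14 (median 0.13) and the T and NK cell markers in 1 of 12 (median −0.66).

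Averaged over 6 h, day 1 and day 3, which sets 9 anti-PD-1 tumors against 9 IgG tumors, the log2 fold changes of the 5 genes lay between −0.09 (Psmb9, SE 0.40) and −0.01 (Psmb10, SE 0.38). The median over all genes was −0.04. The lowest and highest bounds of their 95% intervals were 0.526-fold and 1.69-fold, and the adjusted p was 0.9999 for each. Here too 0.0% of genes were called (1568 at unadjusted p under 0.05, and by DESeq2 0 higher and 9 lower, none of the 5).

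In tumors left untreated, the 5 genes were somewhat higher at day 3 than at 0 h. Psme1 stood at 227, 220 and 150 CPM at day 3 and at 165.9, 157 and 115 CPM at 0 h, which overlap. The log2 fold change was 0.45 (SE 0.44) for Psme1 and 0.54 (SE 0.70) for Psmb9, with a median of 0.32 over the 5 beside 0.00 over all genes. Adjusted p lay between 0.965 and 1, and 0.0% of genes were called (1850 at unadjusted p under 0.05, and by DESeq2 8 higher and 189 lower, none of the 5). Without untreated 0 h replicate 1, 0 genes were called higher and 60 lower, none of the 5. Macrophage markers were higher in 0 of 9 cases (median −0.30) and T and NK cell markers in 2 of 12 (median −0.82) in the same comparison. The largest shifts were in keratinocyte markers, higher in 0 of 6 cases (median −9.85), and skeletal muscle markers, in 0 of 6 (−3.79). B cell markers were higher in 6 of 6 cases (0.63) and melanoma markers in 6 of 8 (0.22). Their part in the values of the 5 genes was not tested.

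**Figure D3:**
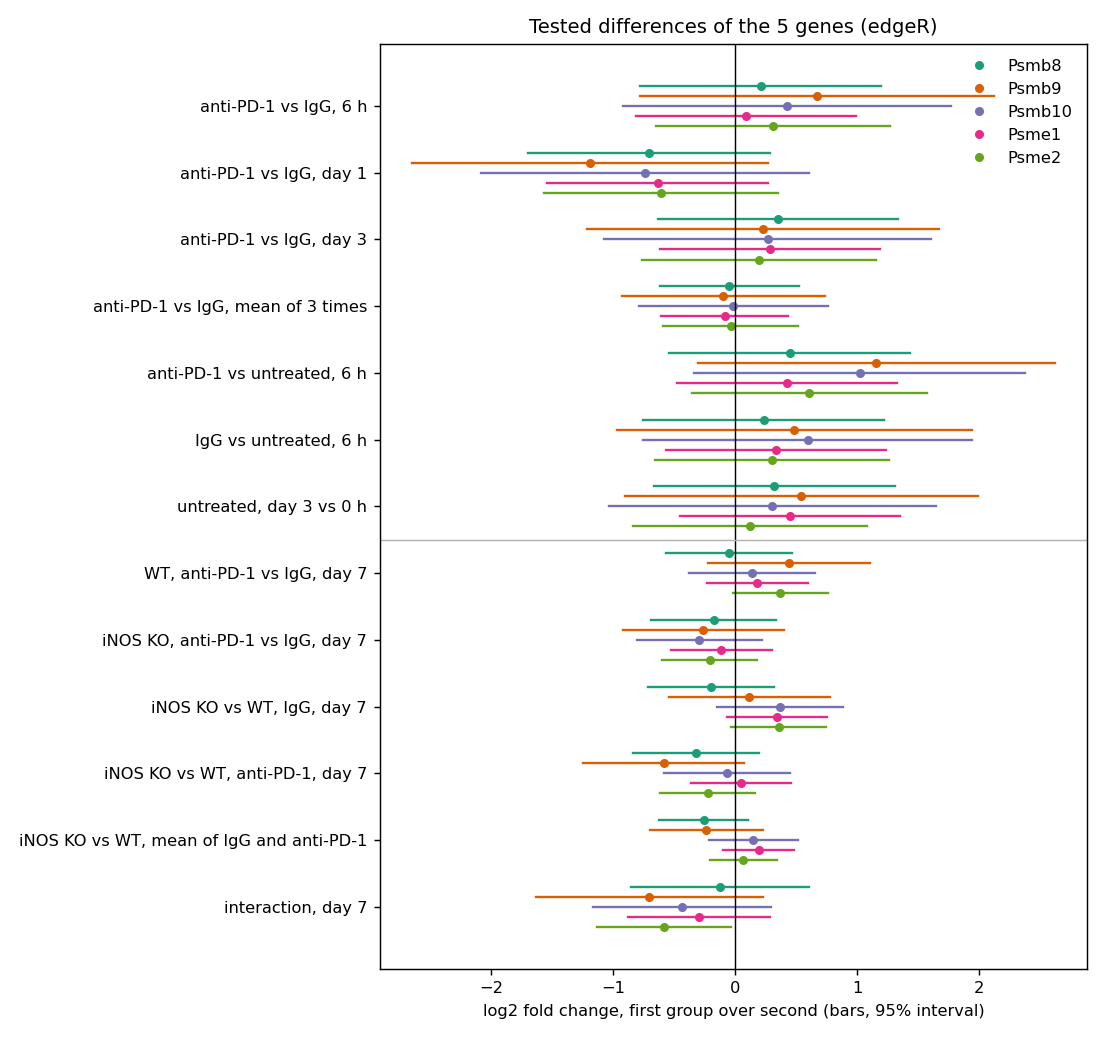
Log2 fold change of each of the 5 genes in each of the 13 tested comparisons (points) with its unadjusted 95% interval (bars), first group over second, for the first experiment above the line and day 7 below it. The intervals reach over 0 for every gene and comparison except Psme2 in the interaction (−1.13 to −0.03).

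At day 7 the anti-PD-1 and IgG tumors of WT mice differed little in the 5 genes. Psme2 stood at 22.2, 25.5 and 19.9 CPM with anti-PD-1 and at 20.3, 13.99 and 17.9 CPM with IgG, and Psmb9 at 13.8, 16.7 and 12.1 CPM against 8.05, 9.04 and 14.3 CPM. The lowest anti-PD-1 tumor lies below the highest IgG tumor for both genes. Log2 fold changes were 0.44 for Psmb9 (SE 0.32), 0.37 for Psme2 (SE 0.19), 0.18 for Psme1 (SE 0.20), 0.14 for Psmb10 (SE 0.25) and −0.05 for Psmb8 (SE 0.25), beside a median of 0.68 over all genes tested. Adjusted p lay between 0.308 and 0.900, and 0.0% of genes were called (5034 at unadjusted p under 0.05, and by DESeq2 154 higher and 34 lower, none of the 5). Without anti-PD-1 replicate 2, which is not rich in receptor gene counts, 543 genes were called higher and 1728 lower, none of the 5. Replicates 3 and 4 with anti-PD-1 are 2 of the libraries rich in receptor gene counts. Without replicate 3 or 4 Psme2 was at 0.33 or 0.31 and Psmb9 at 0.38 in both cases, with the background subtracted they were at 0.52 and 0.53, and with the background as a covariate at 0.29 and 0.27.

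In KO-labelled mice the 5 genes were lower with anti-PD-1 than with IgG by small amounts. Psmb9 stood at 9.26, 8.28 and 10.9 CPM with anti-PD-1 and at 8.55, 8.44 and 17.03 CPM with IgG, and Psmb8 at 29.5, 23.2 and 26.7 CPM against 28.4, 21.6 and 39.8 CPM. Groups overlapped for every gene, and IgG replicate 3 was the highest for Psmb8 and Psmb9. Log2 fold changes ran from −0.29 (Psmb10, SE 0.25) to −0.11 (Psme1, SE 0.20), with 0.530-fold and 1.32-fold as the lowest and highest bounds of their 95% intervals. The adjusted p was 1 for each, and 0.0% of genes were called (599 at unadjusted p under 0.05, and by DESeq2 7 higher and 13 lower, none of the 5). Of the interferon-γ signaling genes 0 of 10 were higher (median −0.25), and of the T and NK cell markers 0 of 12 (median −1.56). In WT tumors at day 7 the same lists gave 6 of 10 (0.05) and 7 of 12 (0.16), where the median over all genes was 0.68. Class I pathway genes were higher in 1 of 11 cases in KO-labelled (−0.27) and in WT tumors (−0.24). Macrophage markers were higher in 0 of 9 in both (−0.36 and −1.16). Type I interferon-stimulated genes were higher in 1 of 16 (−0.26) and 6 of 16 (−0.31).

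Whether the response to anti-PD-1 differed between KO-labelled and WT tumors was tested as an interaction. All 5 values were below 0, from −0.12 for Psmb8 (SE 0.35) to −0.70 for Psmb9 (SE 0.45), with a median of −0.43 beside −0.47 over all genes tested. Psme2 gave −0.58 (SE 0.26, 95% interval −1.13 to −0.03), and its unadjusted p of 0.0391 became an adjusted p of 0.670 over 30837 genes. It was the only 1 of 65 tests of the 5 genes with an unadjusted p under 0.05, and 6.44% of all genes had such a p with a value below 0 in this comparison. Without anti-PD-1 WT replicate 3 or 4 the value of Psme2 was −0.54 or −0.55, and with the background subtracted −0.73. With the background as a covariate Psme2 was at −0.48 and the median over all genes at 0.02. No gene passed the adjusted threshold (0.0% of genes), 2287 had an unadjusted p under 0.05, and DESeq2 called 1 higher and 21 lower, none of the 5. The T and NK cell markers were above 0 in 0 of 12 cases (median −2.47) and dendritic cell markers in 2 of 7 (median −1.06), while macrophage markers were above 0 in 9 of 9 (median 0.78), and their part in the values of the 5 genes was not tested.

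The genotype labels were compared in the treated tumors, which were not in the contrast that singled out the 5 genes. Earlier results of these data were known when the genes and tests were chosen. With IgG, Psme1 stood at 129.5, 138.6 and 165.7 CPM in KO-labelled tumors and at 117, 99.0 and 126 CPM in WT tumors, and Psme2 at 20.42, 20.28 and 26.2 CPM against 20.26, 13.99 and 17.9 CPM. For these 2 genes every KO-labelled tumor was above every WT tumor, by little for Psme2, as was the case for 5.7% of all genes, and the other 3 genes overlapped. Log2 fold changes were 0.37 for Psmb10 (SE 0.25), 0.36 for Psme2 (SE 0.19), 0.34 for Psme1 (SE 0.20), 0.12 for Psmb9 (SE 0.31) and −0.19 for Psmb8 (SE 0.25), beside −0.14 over all genes. None passed the test (adjusted p 0.626 to 0.980, 0.0% of genes called, 1931 at unadjusted p under 0.05, and by DESeq2 9 higher and 20 lower, none of the 5). The constitutive core was higher in 13 of 14 genes (median 0.37), with Psmb7 at 0.50, Psmb6 at 0.39 and Psmb5 at 0.38, and none of them was called. Melanoma markers were higher in 8 of 8 cases (median 0.32), while T and NK cell markers were higher in 0 of 12 (median −0.96), macrophage markers in 0 of 9 (−0.71), dendritic cell markers in 0 of 7 (−0.54) and leukocyte markers in 1 of 10 (−0.56). Their part in the values of the 5 genes was not tested.

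With anti-PD-1, Psmb9 was lower in every KO-labelled tumor (9.26, 8.28 and 10.9 CPM) than in every WT tumor (13.8, 16.7 and 12.1 CPM), as were 17% of all genes. Its log2 fold change was −0.58 (SE 0.32, adjusted p = 0.185), those of the other 4 genes lay between −0.32 (Psmb8, SE 0.25) and 0.05 (Psme1, SE 0.20), and the median over all genes was −0.91. The WT group held the 2 libraries with the most receptor gene counts. With the length-scaled background subtracted, the median over all genes moved to −0.19 and Psmb9 to −0.67. With the background as a covariate they were 0.01 and −0.14, and without WT replicate 3 or 4 Psmb9 was at −0.47 or −0.63. No gene passed the threshold (0.0% of genes, 9959 at unadjusted p under 0.05, and by DESeq2 367 higher and 2679 lower, none of the 5). Without WT replicate 2, 2192 genes were called higher and 2767 lower, none of the 5. The T and NK cell markers were higher in 0 of 12 cases (median −2.86), with sums of 3.14 to 8.17 CPM in KO-labelled and 24.04 to 44.8 CPM in WT tumors. High background stood in 2 of the 3 WT libraries and in none of the 3 KO-labelled ones, so it and the genotype label cannot be told apart here.

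Averaged over IgG and anti-PD-1, the KO-labelled minus WT log2 fold changes ran from −0.26 for Psmb8 (SE 0.17) through −0.23 for Psmb9 (SE 0.22, and 0.10 with the background as a covariate), 0.07 for Psme2 (SE 0.13) and 0.15 for Psmb10 (SE 0.17) to 0.20 for Psme1 (SE 0.14). This comparison called 0.0746% of genes, 3 higher and 20 lower, and none of the 5 (adjusted p 0.324 to 0.790). The median over all genes was −0.56. The lowest and highest bounds of the 95% intervals of the 5 were 0.616-fold and 1.43-fold. DESeq2 called 501 higher and 2513 lower, again none of the 5. The count of called genes also turned on single libraries. It was 1825 higher and 6957 lower without anti-PD-1 WT replicate 2, 0 in both directions without anti-PD-1 WT replicate 3, and 183 and 1663, 32 and 577 and 23 and 191 without IgG WT replicates 1, 2 and 3. It was 12 and 32 without anti-PD-1 KO-labelled replicate 2 and 4 and 35 without IgG KO-labelled replicate 1, with none of the 5 among them each time. T and NK cell markers were higher in 0 of 12 cases (median −1.70), B cell markers in 1 of 6 (−3.21), dendritic cell markers in 0 of 7 (−1.41) and macrophage markers in 0 of 9 (−0.35). Melanoma markers were higher in 8 of 8 cases (0.41), 1 of them called, and skeletal muscle markers in 6 of 6 (1.40). The part of these cells in the values of the 5 genes was not tested.

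In the untreated tumors of day 7, the contrast behind the choice of the genes, all 5 were higher in each KO-labelled tumor than in each WT tumor. Psmb9 stood at 36.5, 19.7 and 47.1 CPM against 5.84, 9.60 and 8.44 CPM. Psme2 stood at 49.95, 35.9 and 50.7 CPM against 14.03, 18.9 and 15.5 CPM. Psmb8 stood at 60.6, 43.1 and 78.9 CPM against 21.4, 26.5 and 28.2 CPM. KO-labelled replicate 4 was the highest and replicate 2 the lowest of the 3 for each gene. Psmb10 stood at 34.02, 23.2 and 41.8 CPM against 14.1, 13.96 and 15.3 CPM, and Psme1 at 230.2, 175 and 286 CPM against 139.8, 130.1 and 134 CPM.

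The log2 fold changes of KO-labelled over WT untreated tumors were 2.11 for Psmb9 (SE 0.33), 1.497 for Psme2 (SE 0.19), 1.26 for Psmb8 (SE 0.25), 1.19 for Psmb10 (SE 0.25) and 0.77 for Psme1 (SE 0.20), or 4.33-fold, 2.82-fold, 2.40-fold, 2.28-fold and 1.71-fold. Over all genes tested the median was 0.49, 9.73% of genes were higher in every KO-labelled tumor, and 0.587% were called. Nothing is read from these shares, since the contrast chose the genes. Without KO-labelled replicate 1, the library rich in receptor gene counts, the values were 2.08, 1.43, 1.27, 1.17 and 0.78, and with the background subtracted 2.18, 1.57, 1.33, 1.26 and 0.85. Of the genes not chosen, Psmb5 gave 0.53, Psmb6 0.54 and Psmb7 0.05, Psme3 gave −0.36, Psme4 −0.38 and the proteasome inhibitor Psmf1 −0.19, and the assembly factor Pomp, which helps build new proteasomes, gave 0.56.

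Other lists differed between the same untreated tumors. The constitutive core was higher in 14 of 14 genes (median 0.53) and the 19S regulator, the cap that recognizes ubiquitin, in 10 of 18 (median 0.03). Interferon-γ signaling genes were higher in 6 of 10 cases (median 0.75), with 1.74 for Socs1, 1.48 for Irf1 and 1.38 for Irf8. Ifng itself had 10, 0 and 14 counts in the KO-labelled tumors and 0 in each WT tumor. Type I interferon-stimulated genes were higher in 15 of 16 cases (median 0.31). The class I pathway was higher in 8 of 11 genes (median 0.60), with 1.10 for Tapbpl, 1.04 for Tap1, 0.83 for H2-K1 and 0.79 for H2-D1. The T and NK cell markers were higher in 12 of 12 cases (median 1.46), with sums of 9.82 to 25.8 CPM in KO-labelled and 3.47 to 10.6 CPM in WT tumors, while macrophage markers were higher in 0 of 9 (median −0.36) and leukocyte markers had a median of 0.05. Dendritic cell markers were higher in 7 of 7 cases (median 1.22), B cell markers in 5 of 6 (2.59) and adipocyte markers in 5 of 5 (2.54). The part of these cells in the levels of the 5 genes was not tested.

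The treated KO-labelled tumors held less of the 5 genes than the untreated ones, which are the same libraries that chose the genes, so these values too are a description. The mean level with IgG was 0.329 of that in untreated tumors for Psmb9, 0.490 for Psme2, 0.492 for Psmb8, 0.628 for Psme1 and 0.662 for Psmb10. With anti-PD-1 it was 0.275, 0.424, 0.435, 0.581 and 0.540 in the same order. All 5 genes were lower in each anti-PD-1 tumor than in each untreated one (8.46% of all genes), and with IgG all but Psmb10 were (9.53% of all genes).

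The balance of immune to constitutive subunits was measured as the ratio of counts per exonic kilobase within each library, which does not depend on the scaling between libraries. The lengths merge all annotated exons, 3381 bp for Psmb8 and 899 for Psmb5, 3660 for Psmb9 and 1872 for Psmb6, and 1705 for Psmb10 and 3421 for Psmb7. The size of a ratio, and whether it exceeds 1, depends on these lengths, while differences between tumors do not. Over the 30 tumors of the first experiment, Psmb10/Psmb7 ranged from 0.138 to 2.61 with a median of 0.559 and exceeded 1 in 6 tumors. Psmb8/Psmb5 ranged from 0.306 to 1.63 with a median of 0.597 and exceeded 1 in 2 tumors. Psmb9/Psmb6 ranged from 0.0319 to 0.429 with a median of 0.106. IgG day 1 replicate 4 was the highest for all 3 ratios. At day 7 the ranges were 0.237 to 0.743, 0.261 to 0.983 and 0.0392 to 0.194, and none of the 18 tumors exceeded 1.

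**Figure D4:**
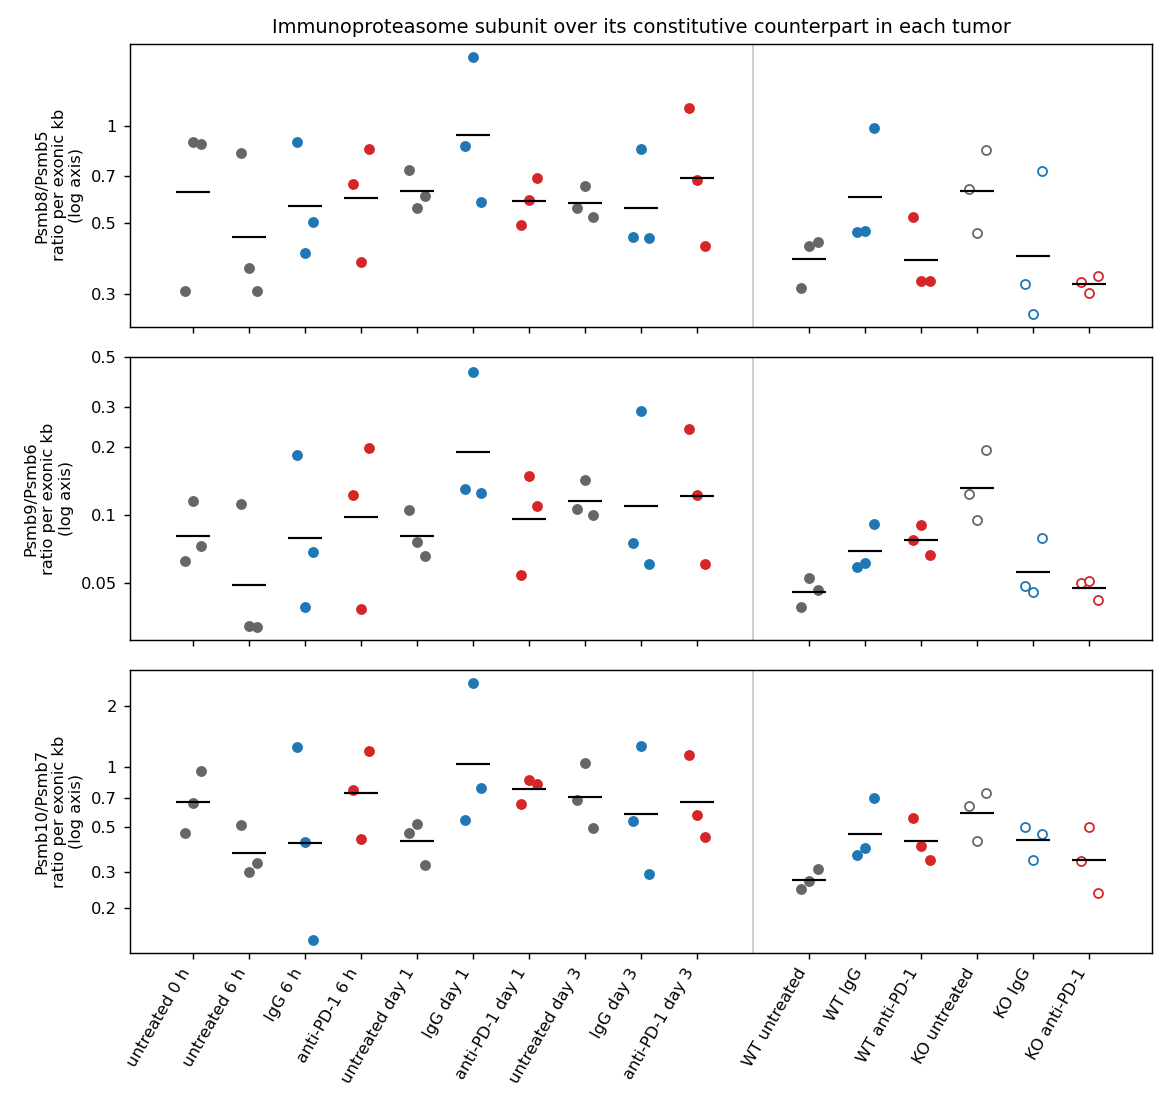
Ratios Psmb8/Psmb5, Psmb9/Psmb6 and Psmb10/Psmb7 (counts per exonic kilobase, log axis) in each tumor by group, 1 point per tumor and a line at the mean of the log2 ratios, with open points for KO-labelled tumors. The ratios vary widely between tumors of a group, and IgG day 1 replicate 4 is highest in the first experiment, at 1.63, 0.429 and 2.61.

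None of 9 tests of these ratios passed after adjustment (exact permutation tests, two-sided, labels exchanged within time, genotype or treatment, Benjamini-Hochberg over 9). Between anti-PD-1 and IgG over 6 h, day 1 and day 3, the mean log2 ratio differed by −0.10 for Psmb8/Psmb5, −0.18 for Psmb9/Psmb6 and 0.20 for Psmb10/Psmb7 (adjusted p = 0.814 for each by the exact test). Between KO-labelled and WT tumors with IgG or anti-PD-1, Psmb9/Psmb6 differed by −0.51, lower in the KO-labelled tumors by 0.31 with IgG and by 0.71 with anti-PD-1 (−0.63 to −0.41 when each library was left out in turn), with an exact p of 0.03 and an adjusted p of 0.27, where the smallest p this design allows is 0.005. Psmb8/Psmb5 differed by −0.43 (exact test, adjusted p = 0.555) and Psmb10/Psmb7 by −0.21 (exact test, adjusted p = 0.72). Between anti-PD-1 and IgG within genotype at day 7, the differences were −0.46, −0.03 and −0.23 for Psmb8/Psmb5, Psmb9/Psmb6 and Psmb10/Psmb7 (exact tests, adjusted p 0.555, 0.865 and 0.72).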

How the data were processed

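The authors deposited whole-number read counts per gene for 48 bulk tumor RNA libraries of the 2 experiments in 1 table. Per the submitters' processing notes and the study's methods, reads were trimmed with cutadapt 1.8.1, aligned with STAR 2.7.7a to mm10 and quantified with RSEM 1.3.0 on GENCODE vM21. The table itself is named for a feature-counting tool, so which program made the counts is uncertain. The libraries were strand-specific, and the strand setting of the counting is not given in the sources used here, so antisense and overlapping genes are uncertain. All 55450 identifiers matched GENCODE vM21.

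The fits, separate for the 2 experiments, used edgeR 4.0.16 (R 4.3.3) with TMM scaling, filterByExpr with a minimum count of 10 (26848 and 30837 genes tested), 1 coefficient per group (20 and 12 residual degrees of freedom), the quasi-likelihood F-test and Benjamini-Hochberg adjustment over all genes tested, with a threshold of 0.05. Levels are CPM on TMM-scaled library sizes, and log2 levels used an offset of 0.5 CPM. Other tools were DESeq2 1.42.0, limma 3.58.1, Python 3.11.15, pandas 2.3.3, numpy 2.4.6 and matplotlib 3.10.9. Library totals ranged from 11625862 to 47687872 counts. The p-values of the fits rest on the spread between tumors of a group, 3 a group and each of a separate mouse by the study's methods. That spread was estimated over all groups of an experiment together, so groups outside a comparison also contribute to its p.

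The 5 genes, the gene lists (proteasome core, regulators, assembly factors, interferon-γ signaling, class I pathway, interferon-stimulated genes and cell markers) and the tests were chosen with earlier results of these data known. Named genes were the 5, Nos2, the constitutive counterparts, Psme2b, called genes and up to 4 genes of largest change from each pathway list, and the 10 genes most correlated with the mean of the 5. The regulator Psme3, Psme4 and Psmf1 list and Pomp, Psmb5, Psmb6 and Psmb7 follow the same rule, and Ifng and Irf1 levels were named after their values were seen. Background was measured as counts over 1502 receptor genes. The alternatives tried were DESeq2 size factors, no filter, a replicate block, only the groups compared, DESeq2's Wald test, background subtraction, background as a covariate, Psme2 plus Psme2b, and leaving out each library in turn. Replicates of a group differed by more than sampling noise (chi-square per gene 16.2 to 410.8).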

Additional observations from a re-analysis of the deposited data

Results flagged for a closer look

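Psmb9, the β1i subunit, stood in opposite directions between the genotype labels in 2 sets of day 7 tumors. Among untreated tumors every KO-labelled tumor (36.5, 19.7 and 47.1 CPM) was above every WT tumor (5.84, 9.60 and 8.44 CPM), a log2 fold change of 2.11. The same held for 9.73% of all genes, and the median over all genes was 0.49. Among anti-PD-1 tumors every KO-labelled tumor (9.26, 8.28 and 10.9 CPM) was below every WT tumor (13.8, 16.7 and 12.1 CPM), a log2 fold change of −0.58. So were 17% of all genes, and the median over all genes was −0.91, further below 0 than Psmb9. With IgG the log2 fold change of Psmb9 was 0.12 (SE 0.31), and the groups overlapped. The difference between the untreated and anti-PD-1 contrasts was not tested, because the untreated contrast chose the gene. Untreated KO-labelled replicate 1 and anti-PD-1 WT replicates 3 and 4 are the 3 libraries rich in receptor gene counts. With that background subtracted the untreated and anti-PD-1 values were 2.18 and −0.67, and with it as a covariate 1.85 and −0.14.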

How the results depend on the processing

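None of 206 other fits of the tested comparisons called any of the 5 genes, so calls did not depend on the settings tried, while signs of small values did. Counts of all called genes did. With no filter they were, higher and lower, 75 and 0 for anti-PD-1 over untreated at 6 h, 3 and 394 for untreated day 3 over 0 h, 508 and 474 for anti-PD-1 over IgG at day 7 in WT and 22 and 56 in KO-labelled tumors, 60 and 214 for KO-labelled minus WT with IgG, 180 and 2649 with anti-PD-1 and 475 and 4689 in their mean, and 7 and 263 for the interaction. The mean called 0 genes with DESeq2 size factors, background subtracted or as a covariate, 72 higher and 642 lower with only the groups compared, and 3 higher and 41 lower with the replicate block. With 3 tumors a group, the highest bound of a 95% interval for anti-PD-1 over IgG at 6 h was 4.36-fold, and counts of at least 142 per library leave little counting error. Besides leaving out libraries, 8 alternatives gave 16 values of opposite sign, and the cause was not tested. Same-numbered tumors did not deviate together (median r −0.03 over 65 pairs and −0.02 over 36), so the numbers do not pair the samples. The replicate block changed no call of the 5 genes and turned 1 sign, Psme1 at 6 h for anti-PD-1 over IgG, to −0.17.

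With background as a covariate, anti-PD-1 over IgG at 6 h was −0.00073 for Psmb8 and −0.029 for Psme1, and Psmb9 in the mean of KO-labelled minus WT was 0.10. Psmb8 for anti-PD-1 over IgG at day 7 in WT was 0.010 with DESeq2 size factors, 0.056 with background subtracted, 0.0010 with the covariate and 0.0098 by DESeq2's Wald test. For KO-labelled minus WT with anti-PD-1, Psmb10 was 0.045 with no filter, and Psme1 was −0.031 with DESeq2 size factors and by the Wald test, −0.10 with background subtracted and as a covariate, and −0.0098 with only the groups compared. Psme2 in the mean of KO-labelled minus WT was −0.013 with background subtracted and −0.051 with Psme2b added.

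Leaving out 1 library at a time turned the sign of 38 results at least once, with the following lowest and highest values, none past a threshold. Anti-PD-1 over IgG at 6 h ran from −0.037 to 1.88 for Psmb10, −0.10 to 0.92 for Psmb8 and −0.21 to 0.68 for Psme1. At day 1 it ran from −1.18 to 0.47 for Psmb10, −1.06 to 0.19 for Psmb8, −1.04 to 0.30 for Psme1 and −0.97 to 0.28 for Psme2. At day 3 it ran from −0.32 to 0.91 for Psmb10, −0.20 to 0.78 for Psmb8, −0.50 to 1.14 for Psmb9, −0.022 to 0.64 for Psme1 and −0.18 to 0.58 for Psme2. The mean over these times ran from −0.21 to 0.46 for Psmb10, −0.22 to 0.25 for Psmb8, −0.33 to 0.36 for Psmb9, −0.21 to 0.22 for Psme1 and −0.16 to 0.26 for Psme2. IgG over untreated at 6 h ran from −0.85 to 1.07 for Psmb10, −0.47 to 0.56 for Psmb8, −0.92 to 0.90 for Psmb9, −0.24 to 0.55 for Psme1 and −0.55 to 0.60 for Psme2. Untreated day 3 over 0 h ran from −0.15 to 0.35 for Psme2. Anti-PD-1 over IgG at day 7 ran in WT from −0.14 to 0.41 for Psmb10 and −0.34 to 0.10 for Psmb8, and in KO-labelled tumors from −0.36 to 0.093 for Psmb8, −0.43 to 0.17 for Psmb9 and −0.30 to 0.0064 for Psme1. KO-labelled minus WT ran with IgG from −0.43 to 0.029 for Psmb8 and −0.27 to 0.41 for Psmb9, and with anti-PD-1 from −0.22 to 0.25 for Psmb10, −0.45 to 0.0079 for Psmb8 and −0.10 to 0.25 for Psme1. The interaction ran from −0.31 to 0.17 for Psmb8. The log2 ratios of anti-PD-1 and IgG over the 3 times ran from −0.072 to 0.46 for Psmb10/Psmb7, −0.22 to 0.033 for Psmb8/Psmb5 and −0.35 to 0.057 for Psmb9/Psmb6, and that of Psmb9/Psmb6 within genotype at day 7 from −0.11 to 0.092.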
